A study of Homo sapiens with 4 samples.

Results

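The genes described here set the level of fructose-2,6-bisphosphate or carry out the steps that are particular to gluconeogenesis. They were taken by symbol from a table of raw gene counts: the 6-phosphofructo-2-kinase/fructose-2,6-bisphosphatase genes PFKFB2, PFKFB3 and PFKFB4, the related phosphatase gene TIGAR, and FBP1, PCK2, PC and G6PC3. Of these 8 genes, 6 had a row among the 12912 genes of the table, each under a single Ensembl identifier. FBP1 and PCK2 had none and are not analysed here. A missing row gives no counts, so here and below it does not show that a gene is not expressed. The samples were 4 RNA-seq libraries of the human clear cell renal cell carcinoma line 786-O, which lacks functional VHL, the substrate receptor of a ubiquitin ligase that targets HIFα proteins for degradation. The 2 libraries of 786-O-Ctrl came from the VHL-null line, and the 2 of 786-O-VHL from cells that carry a retroviral HA-tagged wild-type VHL vector (pBabe-puro), with expression driven by the vector and not by the VHL locus. Both sublines are also labeled with a triple-reporter of GFP, luciferase and thymidine kinase and were grown in RPMI1640 with FBS, and what the control cells were transduced with in place of VHL is not given in the sources used here. Each group is 1 subline with RNA extracted in duplicate, nothing says that the duplicates were separate cultures, and the p-values therefore measure only the spread between these samples, which may be technical.

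PFKFB enzymes are bifunctional: one domain makes fructose-2,6-bisphosphate from fructose 6-phosphate and the other breaks it down. That metabolite activates phosphofructokinase and inhibits fructose-1,6-bisphosphatase, and so sets the balance between glycolysis and gluconeogenesis at a single step. TIGAR removes the metabolite, whereas PC, PCK2, FBP1 and G6PC3 encode enzymes of the reactions by which gluconeogenesis bypasses the irreversible steps of glycolysis. Kidney proximal tubule, from which this carcinoma is thought to arise, is a gluconeogenic tissue, and clear cell tumors are known for high glycolytic gene expression downstream of HIF.

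The 786-O-Ctrl libraries, called deeper and shallower here, held 22141263 and 15714166 counts, whereas replicate 1 of 786-O-VHL held 2807779 and replicate 2 held 16114120. Replicate 1 of 786-O-VHL thus stood apart in depth, and 3 counts, the limit that a count of 0 allows, correspond to 1.02 CPM in it but to between 0.142 and 0.199 CPM in the other libraries (CPM, library-size normalized counts, scaled by TMM). Such limits cover counting error only. VHL itself was at 42.9 and 43.9 CPM in 786-O-Ctrl against 178 and 163 CPM in 786-O-VHL (log2 fold change 1.96, edgeR FDR = 2.86e-19). All 9 renal lineage markers examined had a row, 8 of them with a mean over 1 CPM (LHX1 was below), and their summed level was 3474 to 3477 CPM in 786-O-Ctrl and 2676 to 2774 CPM in 786-O-VHL. Of 6 proximal tubule markers only CUBN and GGT1 had a row, summing to 6.13 to 6.18 CPM in 786-O-Ctrl against 7.48 to 9.50 CPM in 786-O-VHL, and none of the 3 leukocyte or 2 hepatocyte markers had one. Markers without a row were thus not measured here, and their absence from the cells is not shown. PECAM1, the only endothelial marker with a row, was at 0.266 to 0.427 CPM over the 4 libraries, and COL1A1, the only fibroblast marker with one, at 5.72 to 7.12 CPM. The part of these marker levels and of depth in the results below was not tested, except where a value at equal depth is given.

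All 6 genes with a row passed the filter on low counts. In 786-O-VHL 3 of them (PFKFB4, PC and PFKFB3) were lower and 2 (TIGAR and PFKFB2) were higher at an edgeR FDR under 0.05, and G6PC3 did not pass. Among all 12335 genes tested, 31.9% were lower and 32.6% higher by the same rule, so a call by itself does not set these genes apart from the rest. Only PFKFB4 passed the stricter threshold of more than 4-fold with an FDR under 0.01, which 1.54% of tested genes passed in the lower direction and 2.92% in the higher direction. With library totals in place of TMM, PFKFB4 fell by less than 4-fold (log2 fold change -1.96) and did not pass it. The median log2 fold change of the 6 genes was -0.17, beside 0.02 over all genes tested. The median absolute log2 fold change over all genes was 0.43, whereas the replicates differed by a median of 0.08 in 786-O-Ctrl, against 0.16 in 786-O-VHL. With library totals in place of TMM the median over all genes moved to 0.15, and the called genes, 4017 higher and 3939 lower in the edgeR test with TMM, became 5077 higher and 3097 lower. In these bulk samples, fewer cells that express a gene and less of its RNA per cell cannot be told apart.

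**Figure D1:**
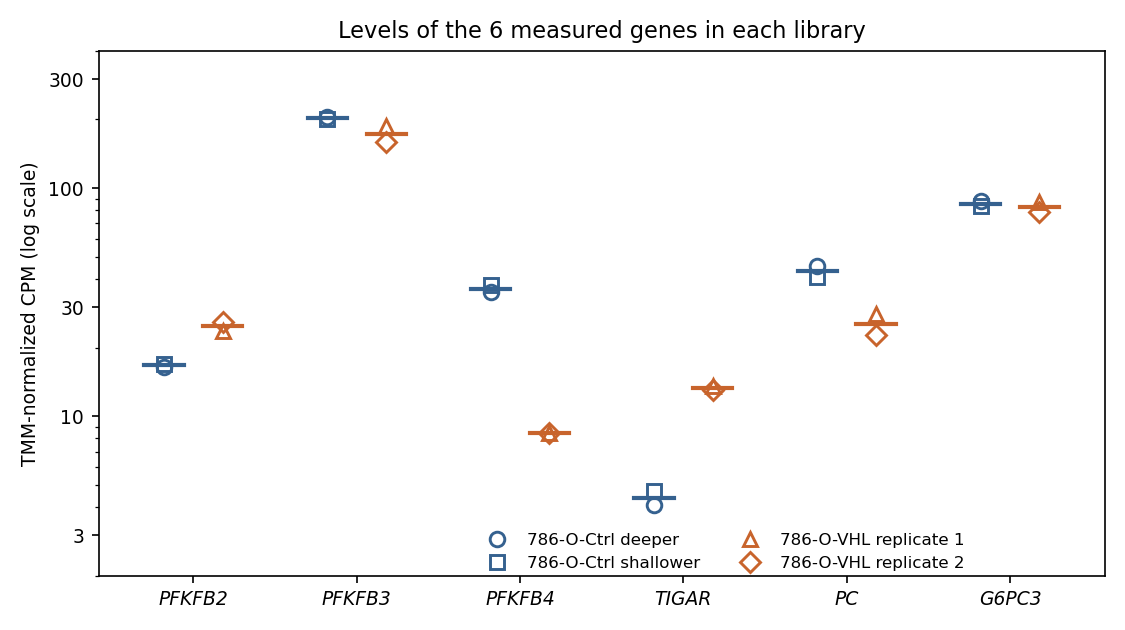
TMM-normalized CPM of the 6 genes with a row (log axis), with 1 symbol per library and a bar at the group mean of 2 libraries. PFKFB4 and TIGAR show the widest separation between the groups, with means of 36.2 against 8.46 CPM and 4.40 against 13.3 CPM, and the symbols of G6PC3 overlap.

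PFKFB4 encodes the isozyme first described in testis, a known HIF target with substantial phosphatase as well as kinase activity. The gene (ENSG00000114268.12) lies on the minus strand of chr3:48555117-48599448 in GRCh37. Its counts were 735 and 565 in 786-O-Ctrl, against 25 and 142 in 786-O-VHL, which correspond to 34.9, 37.5, 8.48 and 8.43 CPM. Both libraries with VHL were far below both without it, and the 786-O-VHL replicates were nearly equal although their depths were not. The mean fell from 36.2 ± 1.87 to 8.46 ± 0.034 CPM (SD, n = 2 each), and the log2 fold change was -2.10 (standard error 0.133, 95% interval -2.37 to -1.82, edgeR FDR = 7.47e-14), a level 4.28-fold lower. Only 1.39% of tested genes had a lower log2 fold change. In the annotation 298 exonic bases are shared with UCN2, the gene for the peptide hormone urocortin 2, which lies on the same strand. UCN2 was at 22.8 and 22.9 CPM in 786-O-Ctrl against 7.46 and 5.82 CPM in 786-O-VHL (log2 fold change -1.90, edgeR FDR = 2.73e-11). How the counting assigned reads in the shared bases is not given in the sources used here, and their part in either value was not tested.

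PFKFB3 encodes the inducible isozyme in which kinase activity far exceeds phosphatase activity. This gene (ENSG00000170525.21, plus strand of chr10:6186897-6296607 in GRCh37) was by far the most abundant of the 3, with 4299 and 3021 counts in 786-O-Ctrl, against 549 and 2690 in 786-O-VHL. These are 204, 201, 186 and 160 CPM, so that both libraries with VHL were lower, replicate 2 more so. The mean went from 202 ± 2.39 to 173 ± 18.7 CPM (SD, n = 2 each). The log2 fold change of -0.26 (standard error 0.0693, 95% interval -0.40 to -0.12) passed the threshold with an edgeR FDR of 0.00175, but 67.3% of all genes tested changed by more. The call was lost with library totals in place of TMM (-0.13, edgeR FDR = 0.105). It was also lost without 786-O-VHL replicate 2 (-0.13, edgeR FDR = 0.15), without the deeper 786-O-Ctrl library (-0.24, edgeR FDR = 0.0575) and at equal depth (-0.19, edgeR FDR = 0.0539).

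PFKFB2 encodes the heart isozyme, whose kinase activity is known to be raised when AKT or AMPK phosphorylates it. The gene (ENSG00000123836.15, plus strand of chr1:207207711-207254369 in GRCh37) had 347 and 256 counts in 786-O-Ctrl, against 70 and 438 in 786-O-VHL. The corresponding levels of 16.5, 17.0, 23.7 and 26.0 CPM place both libraries with VHL above both without it. The mean rose from 16.7 ± 0.379 to 24.9 ± 1.60 CPM (SD, n = 2 each) or 1.52-fold, and its log2 fold change was 0.61 (standard error 0.121, 95% interval 0.36 to 0.85, edgeR FDR = 8.03e-05). It shares 315 exonic bases with YOD1, a deubiquitinase gene on the opposite strand, which moved the other way (log2 fold change -0.30, edgeR FDR = 0.029). Whether the counting used strand is not given in the sources used here, and without strand the reads of those bases cannot be told apart. PFKFB1, the liver isozyme gene, had no row.

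The isozymes thus changed in different directions, and their proportions within a library, which do not depend on the scaling between libraries, were compared. PFKFB4 made up 13.7% of the 5381 summed PFKFB2, PFKFB3 and PFKFB4 counts of the deeper 786-O-Ctrl library (95% exact binomial interval 12.8 to 14.6) and 14.7% of the 3842 of the shallower one (13.6 to 15.9). In 786-O-VHL its share was 3.88% of 644 counts (2.53 to 5.68) and 4.34% of 3270 counts (3.67 to 5.10). The intervals of the 2 groups were far apart, and the mean share changed by -10.1 percentage points, from 14.2% ± 0.740 to 4.11% ± 0.326 (SD, n = 2 each). PFKFB2 went from 6.45% and 6.66% to 10.9% and 13.4%, and PFKFB3 from 79.9% and 78.6% to 85.2% and 82.3%, so PFKFB3 remained the main isozyme in all 4 libraries. The exact two-sided permutation p was 0.333 for each share, the smallest that 2 libraries against 2 allow.

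**Figure D2:**
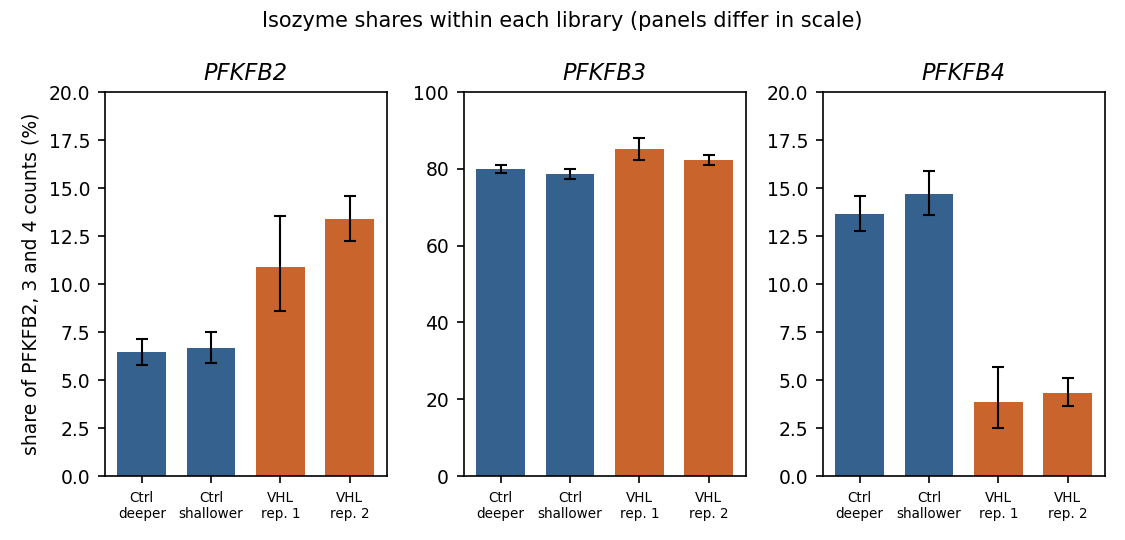
Share of each isozyme in the summed PFKFB2, PFKFB3 and PFKFB4 counts (%), 1 bar per library, with the 95% exact binomial interval (counting error only); the panel of PFKFB3 has a different scale from the other panels. The PFKFB4 bars lie at 13.7% and 14.7% in 786-O-Ctrl, against 3.88% and 4.34% in 786-O-VHL, while the bars of PFKFB2 and PFKFB3 are higher in 786-O-VHL.

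Counts per kb of annotated exons allow levels to be set roughly side by side between genes. The length used joins all annotated exons of a gene, and which transcripts these cells use was not measured. On this scale PFKFB3 was at a mean of 33.1 CPM per kb in 786-O-Ctrl, against 28.3 in 786-O-VHL, PFKFB4 at 5.93 and 1.38, and PFKFB2 at 1.65 and 2.44. PFKFB4 therefore stood above PFKFB2 per kb in both 786-O-Ctrl libraries (5.72 and 6.15 against 1.62 and 1.67 CPM per kb) and below it in both 786-O-VHL libraries (1.39 and 1.38 against 2.33 and 2.56 CPM per kb). As counts, there were 0.472 and 0.453 PFKFB2 counts per PFKFB4 count in 786-O-Ctrl, against 2.80 and 3.08 in 786-O-VHL, a 6.35-fold difference (exact permutation p = 0.333). For PFKFB3 the ratio to PFKFB4 was 5.85 and 5.35 in 786-O-Ctrl, against 22.0 and 18.9 in 786-O-VHL, 3.65-fold apart. The summed level of the 3 isozymes was 255 and 255 CPM in 786-O-Ctrl against 218 and 194 CPM in 786-O-VHL, so the total differed much less than the share of PFKFB4.

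TIGAR encodes a phosphatase of fructose-2,6-bisphosphate, named for its induction by p53, that is known to divert glucose toward the pentose phosphate pathway. The gene (ENSG00000078237.7) lies on the plus strand of chr12:4416929-4469194 in GRCh37. Its counts were 86 and 71 in 786-O-Ctrl, against 40 and 219 in 786-O-VHL, or 4.08, 4.72, 13.6 and 13.0 CPM. Both 786-O-VHL libraries were well above both controls, and the 40 counts of replicate 1 gave nearly the same level as the 219 of replicate 2. The mean rose 3.01-fold from 4.40 ± 0.449 to 13.3 ± 0.399 CPM (SD, n = 2 each), and the log2 fold change was 1.59 (standard error 0.192, 95% interval 1.20 to 1.98, edgeR FDR = 3.45e-08). Of all tested genes, 4.65% had a higher log2 fold change. Per kb of exon TIGAR was the lowest of the 6 genes in 786-O-Ctrl, at 0.466 CPM per kb, and at 1.41 CPM per kb in 786-O-VHL it was at about the level of PFKFB4 (1.38). A second protein-coding model on the same strand (ENSG00000285901), which has no row in the count table, covers 1711 of its 9444 exonic bases, and a pseudogene on the opposite strand covers 121.

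Set against the isozymes, TIGAR was at 1.60 and 1.85 counts per 100 summed PFKFB counts in 786-O-Ctrl, against 6.21 and 6.70 in 786-O-VHL, 3.75-fold more. PFKFB4 and TIGAR, the genes that fell and rose most, necessarily gave the widest contrast, which restates their changes given above and is not separate evidence. In 786-O-Ctrl there were 8.55 and 7.96 PFKFB4 counts per TIGAR count, and in 786-O-VHL 0.625 and 0.648, which is 13.0-fold lower (exact permutation p = 0.333, the smallest possible). PFKFB4 counts exceeded TIGAR counts in both libraries without VHL, and TIGAR counts exceeded PFKFB4 counts in both with it.

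PC encodes pyruvate carboxylase, the biotin-dependent mitochondrial enzyme that makes oxaloacetate from pyruvate, both for gluconeogenesis and to refill the citric acid cycle. The gene (ENSG00000173599.14, minus strand of chr11:66615888-66725857 in GRCh37) had 963 and 611 counts in 786-O-Ctrl, against 83 and 383 in 786-O-VHL. At 45.7, 40.6, 28.2 and 22.7 CPM, both libraries with VHL were below both without it, although the 786-O-VHL replicates differed more than for PFKFB4 or TIGAR. The mean fell 1.81-fold from 43.2 ± 3.62 to 25.5 ± 3.83 CPM (SD, n = 2 each), and the log2 fold change was -0.86 (standard error 0.109, 95% interval -1.08 to -0.63, edgeR FDR = 9.04e-08). A larger fall was seen in 10.2% of tested genes. LRFN4, on the opposite strand within the PC locus, shares 621 of its exonic bases.

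G6PC3 encodes the widely expressed glucose-6-phosphatase of the endoplasmic reticulum, the enzyme of the last step of glucose release. The gene (ENSG00000141349.8, plus strand of chr17:42147988-42159519 in GRCh37) had 1850 and 1250 counts in 786-O-Ctrl, against 255 and 1324 in 786-O-VHL, or 87.9, 83.1, 86.5 and 78.6 CPM. The libraries of the groups overlapped. The means of 85.5 ± 3.38 and 82.6 ± 5.57 CPM (SD, n = 2 each) differed by -0.08 on the log2 scale (standard error 0.0723), which did not pass the test (edgeR FDR = 0.32). The 95% interval of -0.23 to 0.06 bounds the difference, and the sign turned with library totals in place of TMM (0.05) and without 786-O-VHL replicate 2 (0.01). HDAC5, a histone deacetylase gene on the opposite strand, covers 1826 of the 7628 exonic bases of G6PC3 and rose from 24.9 to 52.9 CPM (log2 fold change 1.04, edgeR FDR = 4.67e-10), and without strand the reads of those bases cannot be told apart. Within a library there were 52.1 and 48.9 PC counts per 100 G6PC3 counts in 786-O-Ctrl, against 32.5 and 28.9 in 786-O-VHL, 1.64-fold fewer (exact permutation p = 0.333). Of the tissue-restricted relatives of these genes, PCK1, G6PC1 and G6PC2 had no row, and the muscle gene FBP2 had 0, 0, 0 and 5 counts and was removed by the filter.

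**Figure D3:**
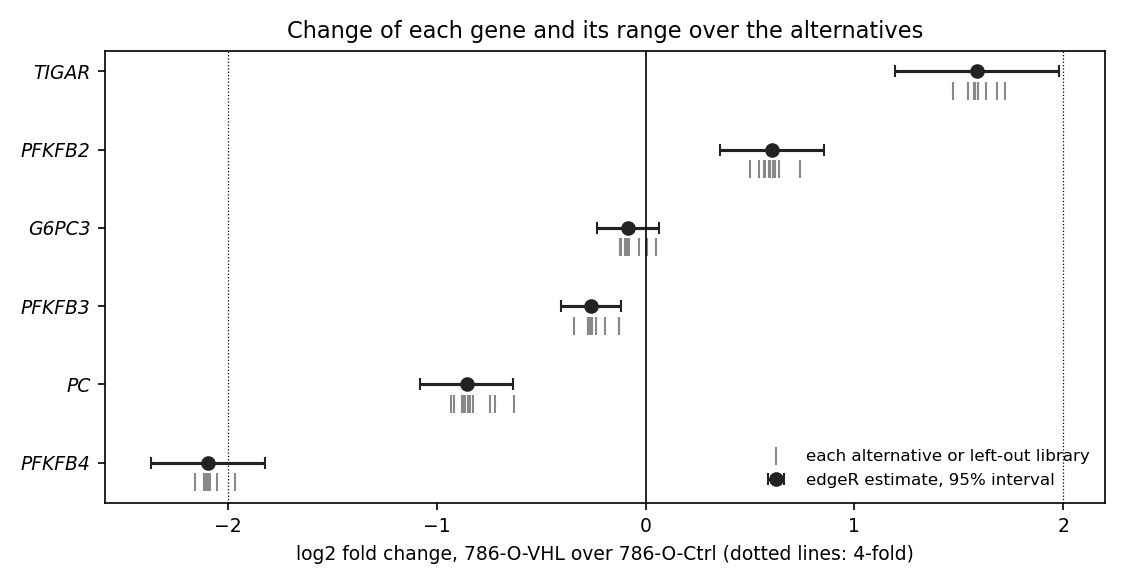
Log2 fold change of each gene, 786-O-VHL over 786-O-Ctrl, as the edgeR estimate with its 95% interval (point and bar) and under each of 11 alternatives, 4 of which leave out a library (grey ticks). TIGAR (1.59) and PFKFB4 (-2.10) lie far from 0 throughout, and the ticks of G6PC3 fall on both sides of it.

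Promoter sequences were available for 5 of the 6 genes, all but PFKFB2, from RefSeq on GRCh38.p14 (coordinates below are of that build, not of GRCh37), as 10 windows from 250 bases before to 50 bases after a start. They were searched on both strands for ACGTG and GCGTG, the core of the element that HIF dimers bind, and for TGATGNAAN, an element of ATF4. The sequences below, for genes that fell and for TIGAR, which rose, are the 200 bases before the start, 5′ to 3′ on the strand of the gene, with the HIF core in capitals (a match on the other strand is capitalised as its complement).
PFKFB4, minus strand of chr3:48556804-48557003: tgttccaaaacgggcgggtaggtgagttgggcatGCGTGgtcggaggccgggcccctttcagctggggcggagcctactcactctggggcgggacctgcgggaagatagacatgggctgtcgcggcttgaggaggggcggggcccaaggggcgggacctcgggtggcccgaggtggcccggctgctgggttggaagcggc
PFKFB3, the second of 2 starts, plus strand of chr10:6202732-6202931: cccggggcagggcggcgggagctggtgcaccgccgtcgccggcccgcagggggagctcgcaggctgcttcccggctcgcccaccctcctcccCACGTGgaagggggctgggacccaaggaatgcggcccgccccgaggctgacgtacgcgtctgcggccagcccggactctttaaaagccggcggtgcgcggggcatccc
PC, the first of 3 starts, minus strand of chr11:66958384-66958583: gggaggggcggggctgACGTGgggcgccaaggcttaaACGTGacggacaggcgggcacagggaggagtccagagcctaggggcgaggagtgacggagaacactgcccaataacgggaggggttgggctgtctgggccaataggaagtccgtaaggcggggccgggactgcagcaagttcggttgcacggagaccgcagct
TIGAR, plus strand of chr12:4321013-4321212: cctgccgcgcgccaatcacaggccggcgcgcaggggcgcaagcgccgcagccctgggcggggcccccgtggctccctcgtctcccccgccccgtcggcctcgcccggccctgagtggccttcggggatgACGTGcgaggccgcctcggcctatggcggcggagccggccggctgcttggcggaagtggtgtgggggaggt
The PFKFB4 window holds GCGTG once, starting at position -166 from the start. The PFKFB3 window holds CACGTG, which is also the E-box that MYC and other factors bind and reads as ACGTG on both strands, at -108 and -107, the window of the first PC start holds ACGTG at -184 and -163, and the TIGAR window holds it at -71. Each of the 3 windows of G6PC3, which did not pass the test, holds 4 matches of ACGTG over both strands. These are CACGTG sites, each counted once on either strand. The 3 windows overlap and hold the same sites, so their matches are not separate. At least 4 cores, counted in the same way, are held by 4.40% of all windows in the table. The letters ACGTG thus occur in genes that rose, fell or were not called. GCGTG was found for PFKFB4 and for the first start of PFKFB3, but it is the more common core, in 36.5% of all windows against 21.4% for ACGTG. In all, 8 of the 10 windows held a core and 0 held TGATGNAAN. The 2 windows without a core belong to the other PC starts. However, windows of the same gene can overlap, and 48.4% of all 35116 windows in the table hold at least 1 core and 3.61% hold TGATGNAAN. These matches are descriptions of letters, and no binding was measured.

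Enzymes that share fructose 6-phosphate or fructose-1,6-bisphosphate with these genes were mostly lower in 786-O-VHL. Of 12 listed, 10 were tested, 8 were lower and 2 higher, with a median log2 fold change of -0.52 beside 0.02 for all genes. By the same rule 31.9% of all genes tested were lower and 32.6% higher. The aldolase genes ALDOC (-1.61) and ALDOA (-1.01) and the isomerase gene GPI (-0.82) fell most, and of the phosphofructokinase genes, PFKP fell by 0.53 and PFKL by 0.48 on the log2 scale while PFKM rose by 0.18. ALDOC rests on few counts, with 0 and 0.891 CPM in 786-O-VHL. GFPT1, which draws fructose 6-phosphate into the hexosamine pathway, rose by 0.72. Of 13 tested genes for the other steps of glycolysis, 11 were lower and 2 higher, with a median of -1.07. TPI1 (-1.49), PGK1 (-1.34) and GAPDH (-1.27) fell most, and the hexokinase-like gene HKDC1 (2.33) and ENO3 (1.26) rose. PFKFB4 fell by more than each tested gene of both lists, and the fall of PFKFB3 (-0.26) was smaller than that of each gene called lower in either.

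Of 14 tested genes that supply or export the intermediates of gluconeogenesis, 7 were lower, 4 were higher and 3 did not pass the test, beside 31.9% lower and 32.6% higher over all genes. Their median log2 fold change was -0.24, and it was -0.11 with library totals and -0.07 at equal depth. The mitochondrial carriers SLC25A10 (dicarboxylate, -0.92), SLC25A1 (citrate, -0.84) and SLC25A13 (aspartate and glutamate, -0.82) fell, and the transaminase genes GOT1 (0.74) and GPT2 (0.69) and the pyruvate carrier subunit MPC1 (0.61) rose. SLC37A4, the glucose 6-phosphate transporter that works with G6PC3, was at 5.18 and 4.25 CPM in 786-O-Ctrl against 5.09 and 4.69 CPM in 786-O-VHL, and did not pass the test (edgeR FDR = 0.99). Among the other biotin-dependent carboxylases and the genes of biotin supply, 5 of 9 were higher, 3 lower and 1 not called, with a median of 0.37. The acetyl-CoA carboxylases ACACB (-1.55) and ACACA (-1.08) and the biotin transporter SLC5A6 (-0.26) fell, as PC did. ACACA rests on few counts, with 4.56 and 3.92 CPM in 786-O-Ctrl against 0.678 and 2.32 CPM in 786-O-VHL. The propionyl-CoA carboxylase subunit PCCA (1.17), the biotin ligase HLCS (0.83) and MCCC1 (0.44) rose.

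Of 14 tested genes for kinases and ubiquitin ligase subunits that are known to act on PFKFB proteins, 5 were higher, 6 lower and 3 not called, shares near the 32.6% and 31.9% over all genes. Their median log2 fold change of -0.0009 turned to 0.13 with library totals in place of TMM. AKT1 (-0.59), the AMPK subunit PRKAG2 (-0.54) and the protein kinase A subunit PRKACA (-0.44) fell. The AMPK subunits PRKAA2 (0.90) and PRKAB2 (0.76) and the other protein kinase A subunit PRKACB (0.55) rose, so that within both kinases some subunit genes rose and others fell.

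Lists of target genes of 3 transcription factors, in which no member is counted, were set beside PFKFB4 and TIGAR. Over all genes tested, 31.9% were called lower and 32.6% higher, which the counts below should be read against.
Of 22 other HIF targets, 12 were lower, 2 higher and 8 not called, and their median log2 fold change was -0.67. EGLN3 (-4.36), which encodes a prolyl hydroxylase of HIFα, CA12 (-2.91) and the glucose transporter gene SLC2A1 (-1.68) fell most, and MXI1 (0.85) and BHLHE40 (0.20) rose. PFKFB4, at -2.10, fell by less than EGLN3 and CA12 and by more than every other gene of that list. EPAS1, which encodes HIF2α, was itself at 319 and 330 CPM in 786-O-Ctrl against 813 and 856 CPM in 786-O-VHL, and its mRNA and that of HIF1A both rose (log2 fold changes 1.37 and 1.35, edgeR FDR = 3.22e-17 and 1.18e-16). These are RNA levels and do not measure protein. By Western blot the paper reports less HIF2α protein in cells with VHL, and it states that 786-O does not express HIF1α. Of 18 other p53 targets, 8 were higher, 3 lower and 7 not called, with a median of 0.14. GDF15 (2.72), BBC3 (1.34) and TP53INP1 (0.72) rose, and POLH (-1.28), SPATA18 (-0.76) and DDB2 (-0.44) fell. The groups overlapped for SPATA18, which was at 4.65 and 4.12 CPM in 786-O-Ctrl, against 5.09 CPM in replicate 1 and 2.02 CPM in replicate 2 of 786-O-VHL. Only 2 genes of the p53 list were called lower with DESeq2, at equal depth and with library totals, and with library totals its median was 0.28. TIGAR rose by more than each p53 target of that list but GDF15. The list of ATF4 targets, of which PCK2 is a known further one, also holds ATF4 itself, which was not called (log2 fold change 0.10, edgeR FDR = 0.161). Of the 20 tested genes of that list, 17 were higher, 1 lower and 2 not called, with a median of 0.89. DDIT3 (2.40), PHGDH (2.29) and ATF3 (2.09) rose most, PHGDH from 0.332 and 0.0665 CPM to 1.02 and 1.13 CPM, and SLC7A5 (-0.15) fell.

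**Figure D4:**
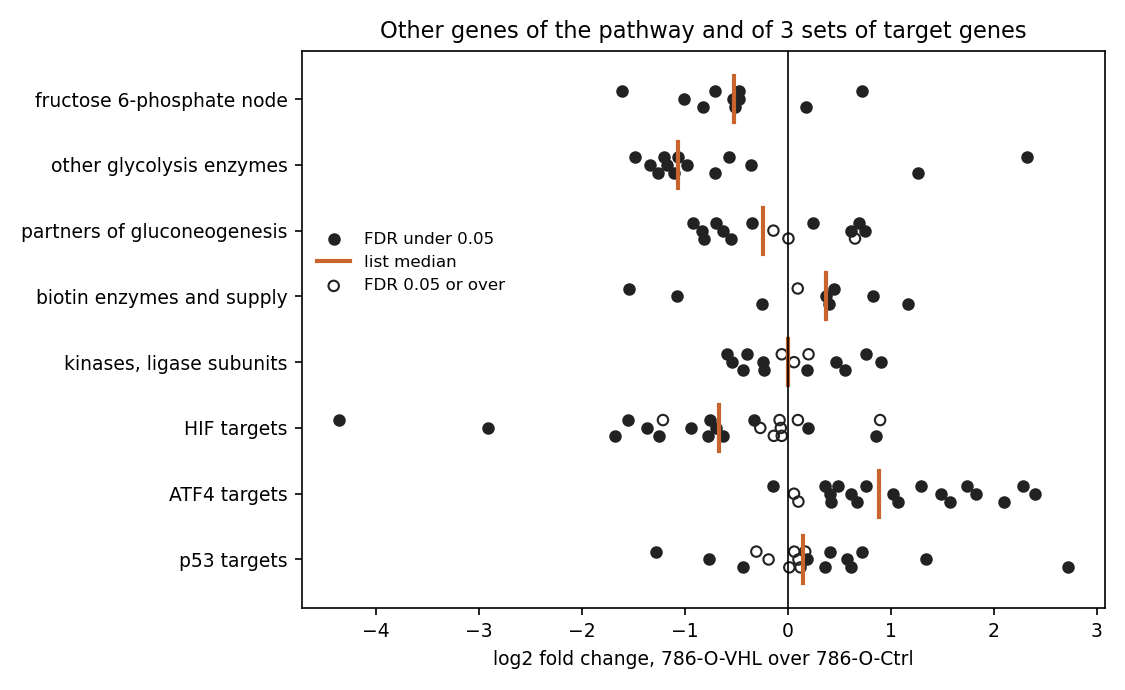
Log2 fold change of each tested gene (786-O-VHL over 786-O-Ctrl) in 8 lists, 1 point per gene, filled at an edgeR FDR under 0.05, with the list median as a bar. The medians run from -1.07 for the glycolysis enzymes outside the fructose 6-phosphate node to 0.89 for the list of ATF4 targets, which also holds ATF4, beside 0.02 for all genes tested.

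The genes most like the 2 members that changed most were found by the Euclidean distance of log2 CPM, centred on each gene's mean, over the 4 libraries. For PFKFB4 they were MVK (mevalonate kinase, distance 0.0755), RECQL4 (a DNA helicase, 0.0934) and TYMS (thymidylate synthase, 0.103), with log2 fold changes of -2.03, -2.03 and -2.04. MVK was at 36.9 and 38.4 CPM in 786-O-Ctrl against 8.82 and 9.26 CPM in 786-O-VHL, close to the CPM of PFKFB4 in each library. For TIGAR they were FAT4 (0.0214), ALDH1L2 (0.0579) and PAPPA (0.0731), with log2 fold changes of 1.58, 1.57 and 1.62. With 4 libraries in 2 groups, such a distance mostly reflects the size of the difference between the groups.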

How the data were processed

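RNA of 786-O-Ctrl (2 libraries) and of 786-O-VHL (2 libraries) was sequenced. The authors used hg19 as the genome, and their deposited table holds unnormalized counts of reads per gene. CASAVA and STAR are named in the submitters' processing notes, and how genes were counted (tool, strand, annotation) is not given in the sources used here. DESeq2 was the tool of the study. Samples were grouped by their labels. Both 786-O-Ctrl columns carry the same replicate number and were used as unnumbered replicates.

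Of 12912 genes, 12335 passed filterByExpr (minimum count 10). Their counts were scaled by TMM (factors from 0.951 to 1.05) and tested with the quasi-likelihood F test of edgeR 4.0.16 (R 4.3.3) with Benjamini-Hochberg adjustment over all genes. The common dispersion was 0.00186. Genes were called at FDR < 0.05. Shares and ratios were compared by exact permutation (scipy 1.17.1). The edgeR test was tried on simulated counts with known fold changes.

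The members, the lists, the motifs and the rule for named genes were chosen with earlier results of these data known. Named were all members and their family, VHL, HIF1A and EPAS1, in each list up to 3 rising and 3 falling genes of the largest fold change among those called, and the 3 genes nearest in pattern to the 2 most changed members. The phosphofructokinase genes, SLC37A4 and the overlapping and neighboring genes were added with their values in view. Coordinates and exon lengths are from a GRCh37 annotation (GENCODE), in which 12749 identifiers were found, and promoters are from RefSeq. The planned ratio of FBP1 to phosphofructokinase counts was not computed, since FBP1 had no row. Alternatives were DESeq2 1.42.0, limma-voom (limma 3.58.1), RLE size factors, library totals, no filter, at least 10 counts in every library, counts thinned to the shallowest library, and each library left out in turn (for lists, 786-O-VHL replicate 1 alone).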

Additional observations from a re-analysis of the deposited data

How the results depend on the processing

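PFKFB2, PFKFB4, TIGAR and PC kept their direction under all 11 alternatives, with log2 fold changes of 0.50 to 0.74, -2.16 to -1.96, 1.47 to 1.72 and -0.93 to -0.63. They kept their call at an FDR under 0.05 under each alternative that keeps all libraries. The stricter call of PFKFB4 was lost with library totals (-1.96), where its fall was under 4-fold. PFKFB3 kept its direction but lost its call with library totals (-0.13) and at equal depth (-0.19), and leaving out 1 library gave -0.34 to -0.13, with the call lost without the deeper 786-O-Ctrl library and without 786-O-VHL replicate 2. G6PC3 reversed its sign with library totals, to 0.050, and leaving out 1 library gave -0.12 to 0.0088, the latter without 786-O-VHL replicate 2. The 550 genes past 4-fold with an FDR under 0.01 became 232 with at least 10 counts in every library and 346 at equal depth, settings that test fewer genes or use fewer counts.

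With DESeq2, and also at equal depth, 1 gene of the fructose 6-phosphate node, 2 partners of gluconeogenesis and 1 HIF target were called higher. The biotin list had 1 gene called lower with DESeq2 and 3 called higher at equal depth. The ATF4 list had 0 called lower with library totals, at equal depth and without 786-O-VHL replicate 1, the last an alternative chosen after seeing the data. With counts divided by exon length the share of PFKFB2 rose by 3.62 and that of PFKFB3 by 6.63 percentage points, against 5.58 and 4.49 for counts. The cause of these changes was not tested. Of the 112 counts of list genes under the alternatives that keep all libraries, 102 were within 1.5 times the value in the report.

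In the order in which the report describes the 8 lists (HIF, p53 and ATF4 targets last), their medians with library totals were -0.39, -0.94, -0.11, 0.50, 0.13, -0.53, 0.28 and 1.02. At equal depth the median was -1.01 for the other glycolysis enzymes, -0.070 for the partners of gluconeogenesis, -0.027 for the kinases and 0.76 for the ATF4 targets. With at least 10 counts in every library it was 0.0034 for the kinases, where the sign turned, 0.76 for the ATF4 targets and 0.17 for the p53 targets, for which DESeq2 gave 0.10. Without 786-O-VHL replicate 1 it was 0.23 for the biotin list, -0.031 for the kinases and 0.97 for the ATF4 targets. The other list medians kept their sign and moved by less than the replicate SD.

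No paired analysis was possible because both 786-O-Ctrl columns carry the same replicate number. The depth of 786-O-VHL replicate 1 limits genes with few counts.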

Other observations

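Genes next to the members were read from the same edgeR fit, and those named here were chosen after their values were seen. C1orf116, 1610 bases from PFKFB2 in the GRCh37 annotation, had 135 and 91 counts in 786-O-Ctrl, against 48 and 307 in 786-O-VHL, a rise of 1.50 on the log2 scale (edgeR FDR = 5.40e-09). COL7A1, the type VII collagen gene 2058 bases from PFKFB4, fell by 0.53 on that scale (edgeR FDR = 8.60e-09), less than PFKFB4 and UCN2 did, while SHISA5, 12858 bases away, rose by 0.50 (edgeR FDR = 6.69e-08).

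CCND2, the cyclin D2 gene 2410 bases from TIGAR, had 0 counts in each 786-O-Ctrl library, against 3 and 13 in 786-O-VHL (edgeR FDR = 9.13e-05), so its level remained low in cells with VHL.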
